A study of Mus musculus with 57 samples.

Results

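Complement is described here through 32 genes of the classical, lectin, alternative and terminal pathways in the livers of 57 mice. The members were listed by symbol, and each of the 32 symbols matched exactly 1 of the 54307 gene rows of the deposited table. Of these, 21 are made mainly by hepatocytes, 7 mainly by macrophages and other myeloid cells, and 4 (C7, Cfd, Cd55 and Colec11) were put in neither class. These classes are textbook assignments and were not measured here. All mice were wild-type male C57BL/6JJcl animals aged 6 weeks, which were acclimatised for 1 week, fasted for 12 h before dosing and killed 24 h after it. By gavage, 4 mice received alpha-naphthyl isothiocyanate (ANIT), 6 acetaminophen (APAP), 7 4,4'-methylene dianiline (MDA) and 5 thioacetamide (TAA), against 13 controls given 0.5% methylcellulose (Ctrl). By intraperitoneal injection, 7 mice received CCl4 and 4 galactosamine (GAL), against 2 controls given 0.9% saline (CIP). By intravenous injection, 7 mice received concanavalin A (ConA), against 2 controls given 0.9% saline (CIV). Corn oil is named among the vehicles, but no group is a corn oil control, so a compound given in corn oil differs from its control in the vehicle as well. Perfused pieces of the left lateral lobe were profiled as bulk RNA, in which fewer cells of a type and less RNA per cell cannot be told apart.

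Complement is a cascade of plasma proteins, most of which the liver secretes, that marks microbes and damaged cells. C1q starts the classical pathway, and mannose-binding lectins, ficolins and collectins start the lectin pathway through the MASP proteases. Both lead to the cleavage of C4, C2 and C3, the alternative pathway amplifies C3 cleavage through factor B, and the terminal components assemble into the membrane attack complex. In the liver, hepatocytes produce most of the soluble components, several of which belong to the acute-phase response, whereas C1q is a product of Kupffer cells and other macrophages.

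Several members lie side by side in the genome. In the RefSeq annotation of GRCm38.p6, C1qb, C1qc and C1qa are adjacent on chromosome 4, as are C8b and C8a, and Cfb and C2 are adjacent on chromosome 17. On chromosome 6, C1ra and C1s1 lie in a run of 5 genes with their close copies C1rb and C1s2. Reads of C1ra, C1s1 and C4b can be shared with C1rb, C1s2 and C4a, so the estimates of these members are uncertain. RefSeq start regions were matched for 24 of the 32 members. The 250 bases before the start are shown for C1qb and C1qc, neighbours that both fell with ConA, for C3, which changed in opposite directions between compounds, and for C4bp, the member with the largest fall under TMM scaling. Capitals mark a PU.1 word (GAGGAAGT, here on the reverse strand) in C1qc, a C/EBP word (TTGCNNAA) in C3 and an HNF1 word in C4bp, in which any base was allowed as the seventh letter.
C1qb (chr4:136886201-136886450, minus strand): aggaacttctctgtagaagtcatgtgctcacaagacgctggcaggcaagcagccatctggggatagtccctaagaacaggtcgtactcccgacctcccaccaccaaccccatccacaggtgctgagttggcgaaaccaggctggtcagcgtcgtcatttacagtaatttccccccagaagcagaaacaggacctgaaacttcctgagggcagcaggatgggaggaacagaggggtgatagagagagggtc
C1qc (chr4:136892915-136893164, minus strand): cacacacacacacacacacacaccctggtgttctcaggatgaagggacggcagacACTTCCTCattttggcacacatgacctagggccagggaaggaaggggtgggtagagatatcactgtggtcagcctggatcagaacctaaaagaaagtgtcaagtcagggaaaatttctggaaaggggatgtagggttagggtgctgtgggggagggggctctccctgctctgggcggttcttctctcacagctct
C3 (chr17:57228137-57228386, minus strand): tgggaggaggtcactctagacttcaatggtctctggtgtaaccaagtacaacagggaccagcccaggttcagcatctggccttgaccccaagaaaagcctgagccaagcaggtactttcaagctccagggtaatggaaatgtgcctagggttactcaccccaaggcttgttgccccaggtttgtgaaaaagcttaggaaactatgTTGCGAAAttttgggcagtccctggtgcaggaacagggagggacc
C4bp (chr1:130661619-130661868, minus strand): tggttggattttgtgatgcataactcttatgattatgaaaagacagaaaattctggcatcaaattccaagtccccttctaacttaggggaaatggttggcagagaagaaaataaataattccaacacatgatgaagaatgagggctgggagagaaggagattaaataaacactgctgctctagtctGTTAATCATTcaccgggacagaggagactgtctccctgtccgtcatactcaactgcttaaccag
Of 32851 RefSeq start regions of this length, 2.44% held the PU.1 word on either strand, 9.56% the C/EBP word and 0.371% the HNF1 word. The HNF1 word was also found before Hc, the gene of complement C5, and the C/EBP word before C9 and C1s1. Other words searched were STAT (TTCNNNGAA, 7.02% of regions, before C7, C8a, Colec11 and Masp2), NF-kB (1.41%, before C3ar1) and ISRE (2.98%, before Colec11). The STAT and ISRE words of Colec11 overlap. Such a match describes the letters and is not evidence of a bound site.

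Libraries held 13826343 to 35075809 estimated counts (median 21532116). Levels below are CPM, which are estimated counts scaled by TMM and set against the library's total in units of 1000000, and they are compared between groups for a gene, not between genes. A gene is called where edgeR's quasi-likelihood test gives a Benjamini-Hochberg adjusted p under 0.05 over all genes tested. The 6 hepatocyte markers summed to at least 20388 CPM in every mouse. TAA mouse 1 stood apart: it had the highest level of its group in all 21 hepatocyte-made members, or in 13 of them when counts were scaled to the library total. APAP mouse 1 was the highest of its group in 12 of the 21, or in 4 under the library total. Among gavage controls, the mice numbered 1 to 4 differed from the 9 with higher numbers in the macrophage-made members. The labels do not say what the numbers stand for, and values within each range are given beside the single genes described most closely.

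With TMM scaling, more hepatocyte-made complement genes were called lower than higher with each compound except ConA, and most were lower with GAL, CCl4 and TAA. Against the vehicle of the same route, GAL lowered 19 of the 21 hepatocyte-made members and CCl4 lowered 17, with none higher. Their median log2 fold changes were -1.38 and -0.96, against 0.08 and 0.10 over all genes tested. Among all members tested, 2 rose and 19 fell of 31 with GAL, where 12.8% of all genes tested rose, 15.7% fell and 28.5% were called in all. With CCl4, 1 rose and 21 fell of 31 (18% of all genes higher, 15.6% lower, 33.5% in all). TAA lowered 13 hepatocyte-made members and raised 1 (median -0.54), and over all 30 members tested 3 rose and 13 fell, with 26.4% of all genes higher, 24% lower and 50.5% in all. The falls with TAA were called among the mice with higher numbers, where 16 hepatocyte-made members were lower (median -0.68), and none was called among mice numbered 1 to 4 (median -0.31). In the lower range TAA holds only mice 1 and 3. Mouse 1 was the highest of its group in all 21 hepatocyte-made members. MDA lowered 10 and raised 2 of the 21 (median -0.35), with 3 higher and 11 lower over 30 members (17.4% of all genes higher, 16.4% lower, 33.8% in all). APAP lowered 8 (median -0.35), with 2 higher and 8 lower over 30 members (17.3%, 14.6% and 31.8%). ANIT lowered 7 and raised 3 (median -0.22), with 4 higher and 7 lower over 30 members (14%, 14.2% and 28.2%). ConA differed in composition: 4 hepatocyte-made members rose and 3 fell (median -0.11), while 5 of the 7 macrophage-made members fell, giving 5 higher and 9 lower over 30 members (16.8%, 17.3% and 34.2%).

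**Figure D1:**
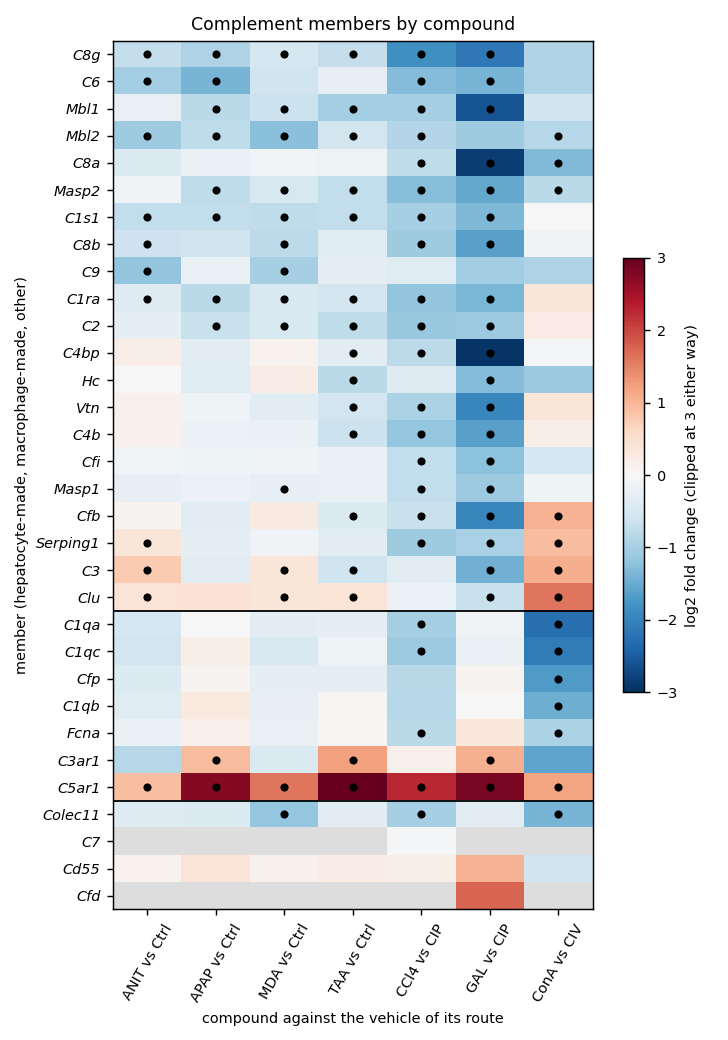
Log2 fold change of each member (rows; hepatocyte-made, macrophage-made and other members from top to bottom) with each compound against the vehicle of its route (columns). Dots mark members with an adjusted p under 0.05 and grey cells were not tested. The hepatocyte-made block is blue throughout the CCl4 and GAL columns, C1qa, C1qb, C1qc, Cfp, Fcna and C3ar1 are blue with ConA, and C5ar1 is red in all 7 columns.

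These counts depended on how libraries were scaled. Scaling to the library total moved the median over all genes by 0.43 with CCl4, 0.76 with GAL, -0.59 with ConA, -0.22 with ANIT and 0.16 with APAP. Under it 10 hepatocyte-made members were lower with CCl4 and 10 with GAL, while with ConA 1 was higher and 10 were lower. Over all members the calls were then 1 higher and 10 lower with CCl4, 6 higher and 10 lower with GAL, 1 higher and 17 lower with ConA, 1 higher and 11 lower with ANIT, 3 higher and 9 lower with APAP, 3 higher and 12 lower with MDA, and 3 higher and 14 lower with TAA. The order of the compounds by members lowered therefore turned, with CCl4 and GAL among the fewest. Without TAA mouse 1, 17 hepatocyte-made members fell with TAA and none rose, and without APAP mouse 1 the members called with APAP went from 10 to 17. Those called with ConA went from 14 to 9 without CIV mouse 7 and to 6 without CIV mouse 8, and those with ANIT from 11 to 5 without ANIT mouse 3 and to 7 without ANIT mouse 4. Markers of hepatocytes themselves fell with CCl4 (6 of 6) and GAL (5 of 6), and with TAA 3 of 6 fell and 1 rose. Their summed level ran from 20388 to 31626 CPM with CCl4 and from 26634 to 34100 with GAL, against 58862 and 64999 in the CIP mice, and their part in the member values was not tested.

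Across the roles, 5 members fell with at least 6 of the 7 compounds: C1ra and C1s1, the proteases of the C1 complex, Masp2, the protease that starts the lectin cascade, Mbl2, a mannose-binding lectin, and C8g, the gamma chain of C8. Of all genes tested with every compound, 5.43% fell with at least 6. The exception was ConA for C1ra, C1s1 and C8g, ANIT for Masp2 and GAL for Mbl2. Without either CIV mouse, or within higher numbers, the calls of Masp2 and Mbl2 with ConA were lost. Each was then lower with 5 compounds. The call of Masp2 with ConA was also lost without ConA mouse 2, 4, 5 or 8. Within numbers 1 to 4 the calls of C1ra with ANIT, all 5 members with TAA and all but Masp2 with APAP were lost. With MDA those of C1ra, C8g and Masp2 were lost in that range. C1s1 ran from 261 to 362 CPM in Ctrl, with a median of 320. With ANIT it was 197, 194, 159 and 194 CPM (log2 -0.75 ± 0.10 SE, edgeR adjusted p = 4.62e-05). With MDA it ran from 150 to 236 around a median of 178 (-0.76 ± 0.10, adjusted p = 5.13e-06). With TAA it was 255, 143, 177, 162 and 163 CPM (-0.74 ± 0.12, adjusted p = 6.57e-05). In these groups every treated mouse was below every Ctrl mouse, which was so for 8.99%, 4.81% and 20.2% of genes in either direction with ANIT, MDA and TAA. Against the Ctrl mice of the same range, C1s1 with TAA was -0.72 in numbers 1 to 4 (adjusted p = 0.0972) and -0.82 in higher numbers, where it was called. C1s1 also fell with APAP (-0.73, but -0.65 and not called within numbers 1 to 4), CCl4 (-1.0) and GAL (-1.36), whereas with ConA it ran from 212 to 366 CPM against 244 and 398 in CIV (-0.02 ± 0.25, adjusted p = 0.966).

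Mbl2 was 253 to 371 CPM in Ctrl, with a median of 317. ANIT mice had 125, 162, 163 and 151 CPM (-1.07 ± 0.11, adjusted p = 2.22e-06), and MDA mice 98.7 to 201 with a median of 136 (-1.25 ± 0.12, adjusted p = 1.84e-07). Neither group overlapped Ctrl. The change with MDA was -1.13 within numbers 1 to 4 and -1.45 within the higher numbers, both called. APAP mice were uneven: mice 8 and 11 had 63.6 and 64 CPM of Mbl2, and the other mice 177 to 275. The fall with APAP was called over all 6 mice (-0.76 ± 0.25, adjusted p = 0.0249). Within the range of numbers 1 to 4 it was -0.38 and not called, and within higher numbers -1.25 and called. Mbl2 with GAL missed the threshold (247, 120, 105 and 145 CPM against 331 and 308, -1.06 ± 0.33, adjusted p = 0.0566).

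C1ra ran from 144 to 201 CPM in Ctrl and from 58.6 to 132 with APAP, without overlap (-0.81 ± 0.15, adjusted p = 0.000399), as was so for 6.69% of all genes with APAP. Mbl1, the other mannose-binding lectin, ran from 193 to 252 CPM in Ctrl. It was 66 to 168 with APAP (-0.80 ± 0.17, adjusted p = 0.00115) and 168, 99.5, 77.2, 80.9 and 92.5 with TAA (-1.01 ± 0.15, adjusted p = 1.55e-05), again without overlap. The highest of the 5 TAA values was that of mouse 1. Within numbers 1 to 4 none of these falls was called (C1ra -0.61 and Mbl1 -0.59 with APAP, Mbl1 -0.73 with TAA), and within higher numbers all were (-1.04, -1.06 and -1.32). Mice 8 and 11 had the lowest APAP values of both genes. The log2 change of C8g with GAL was -2.14, and -1.36 with the library total. In CCl4 mice it ran from 101 to 178 CPM around a median of 135, against 452 and 520 in CIP (-1.83 ± 0.17, adjusted p = 5.74e-05). C6, another terminal component, was 10.3 to 20.5 CPM with CCl4 against 48.3 and 25.7 (-1.29 ± 0.27, adjusted p = 0.00496), a call that was lost without CIP mouse 7 (-0.74). Masp2 fell from 316 and 310 CPM in CIP to between 109 and 138 with CCl4 (-1.29). Under the library total 4 of the calls of these 5 members were lost, C1ra with GAL (-0.61), C1s1 with CCl4 (-0.57) and GAL (-0.59) and Mbl2 with CCl4 (-0.44), and C8g was called with ConA as well (-1.58).

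With TMM scaling, the 3 largest falls of single members were with GAL. C4bp, the inhibitor that helps to break down C4b, was 72.4, 34.2, 30.7 and 33.2 CPM against 337 and 319 in CIP (-2.95 ± 0.36, adjusted p = 0.00351). C8a, the alpha chain of C8, was 30.3, 25.2, 27.3 and 24.7 CPM against 223 and 164 (-2.85 ± 0.19, adjusted p = 0.00208). Mbl1 was 51.4, 29.1, 26.5 and 34.4 CPM against 206 and 220 (-2.59). All GAL mice lay far below both controls in these genes, and GAL mouse 2 was the highest in each. With 4 mice against 2, 52.3% of all genes tested had groups that did not overlap. Scaled to the library total, the falls were -2.16, -2.10 and -1.81, all called, and the falls of C1qa (-2.92), C1qc (-2.75) and Cfp (-2.33) with ConA were then larger.

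Both injected compounds of the CIP route can be compared directly. Of the members, 11 were higher and 8 lower with CCl4 than with GAL, where 22.2% of all genes were higher, 20.3% lower and 42.5% called in all. C4bp was 161 to 218 CPM with CCl4 and differed from GAL by 2.06 on the log2 scale, C8a by 1.99, Mbl1 by 1.51 and Cfb by 1.19. For these genes and for C3, Vtn and Hc (0.99, 0.91 and 0.80) no CCl4 mouse overlapped a GAL mouse, as was so in either direction for 26.9% of all genes. Among the 8 lower with CCl4 were 6 macrophage-made members, led by Fcna at -1.22 ± 0.18 (adjusted p = 0.000284). The library total gave 7 higher and 10 lower, with a shift of -0.23. Within higher numbers C1qa, C1qb, C3ar1, C8b and Clu were not called. The summed Kupffer cell markers were 111 to 354 CPM with CCl4 and 352 to 497 with GAL, and their part in these differences was not tested.

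Of the 30 members tested with all 7 compounds, 4 changed in opposite directions with different compounds (C3, Cfb, Clu and Serping1), a share near the 10.7% of all genes that did so. C3, the central component, was 2733 to 6213 CPM in Ctrl, with a median of 3837. It rose with ANIT to 6248, 5820, 8293 and 6473 CPM (0.79 ± 0.16, adjusted p = 0.00148), with all but ANIT mouse 2 above every Ctrl mouse. It rose with MDA to between 4417 and 6101 (0.37 ± 0.13, adjusted p = 0.0361), a range that lay inside that of Ctrl. It fell with TAA to 3799, 2258, 1941, 2021 and 2386 (-0.59 ± 0.19, adjusted p = 0.0135) and with GAL to 1378, 1150, 1134 and 1196 CPM against 3250 and 3293 in CIP (-1.43 ± 0.13, adjusted p = 0.00217). With CCl4 C3 was 2128 to 3178 CPM (-0.35 ± 0.15, adjusted p = 0.1) and with APAP 1688 to 4810 (-0.31 ± 0.19, adjusted p = 0.228). ANIT mice are all numbered 1 to 4, and against the 4 Ctrl mice of those numbers C3 differed by 0.50, which was not called (adjusted p = 0.124). The fall with TAA was -0.59 within numbers 1 to 4, not called, and -0.71 within higher numbers, called. The rise with MDA was not called within either range or with the range as a covariate (0.30, adjusted p = 0.0533).

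C3 was also high with ConA. The 7 ConA mice had 4113 to 9466 CPM around a median of 6918, against 3328 and 3138 in CIV (1.10 ± 0.32, adjusted p = 0.0227). Clu, which encodes clusterin, a fluid-phase inhibitor of the terminal complex, was 1984 to 3658 CPM with ConA against 1062 and 776 (1.61 ± 0.30, adjusted p = 0.00274). Cfb, factor B of the alternative pathway, was 1427 to 2093 CPM against 995 and 795 (1.04 ± 0.24, adjusted p = 0.00801). Serping1, the C1 inhibitor, was 1085 to 1884 CPM against 848 and 756 (0.92 ± 0.25, adjusted p = 0.0177). In all 4 genes each ConA mouse exceeded both CIV mice, as was so in either direction for 39.9% of genes. Against all 17 vehicle mice the rises were 0.93, 1.34, 1.06 and 0.90. With that scaling to the library total, Clu was still called against CIV (0.93), while C3 (0.43), Cfb (0.40) and Serping1 (0.26) were not. Against all vehicles all 4 were called under that scaling, at 0.27, 0.68, 0.42 and 0.24. Against a single CIV mouse, with either of them left out, the rises of C3 (1.18 and 1.03) and Serping1 (1.04 and 0.81) were not called, nor was that of Cfb without CIV mouse 8 (0.86). Within higher numbers Clu was called (1.41), and C3 (0.87), Cfb (0.96) and Serping1 (0.77) were not.

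Clu also rose with ANIT (1844, 1546, 1537 and 1423 CPM, 0.42 ± 0.15, adjusted p = 0.0432), MDA (1240 to 1824, 0.36 ± 0.12, adjusted p = 0.0273) and TAA (2044, 1395, 1358, 1310 and 1435, 0.40 ± 0.15, adjusted p = 0.0349), against 781 to 1843 in Ctrl. The rise with ANIT was lost whichever ANIT mouse was left out, the rise with MDA without MDA mouse 2, 7 or 12, and the rise with TAA without mouse 1 (0.24). Within numbers 1 to 4 Clu was called with none of the 3 (0.21 with ANIT, 0.13 with MDA, 0.38 with TAA), and within higher numbers it was called with MDA (0.50) and not with TAA (0.33). With GAL Clu was 772, 635, 727 and 673 CPM against 1112 and 1131 (-0.68 ± 0.14, adjusted p = 0.0171), a fall that became 0.092 under the library total. The call with GAL was lost without either CIP mouse, without GAL mouse 4 or 8, and with the number range as a covariate. Serping1 was higher with ANIT (0.36 ± 0.12, adjusted p = 0.0319), but at 0.15 and not called under the library total, at 0.28 and not called within numbers 1 to 4, and not called without ANIT mouse 2, 3 or 4. It was lower with CCl4 (-1.07) and GAL (-0.97, but -0.20 and not called under the library total). Cfb was lower with GAL (-1.95), CCl4 (-0.67) and TAA (-0.41). The call with CCl4 was lost under the library total (-0.23) and without either CIP mouse, and the call with TAA without TAA mouse 3, 6, 7 or 8 and within numbers 1 to 4 (-0.12). The 4 gavage compounds differed from each other in 7 of 30 members by a joint test, a smaller share than the 29.5% of all genes: C3 (adjusted p = 0.000464), C3ar1, C4b, C5ar1, Hc, Cfb and Serping1. Clu was not among them.

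**Figure D2:**
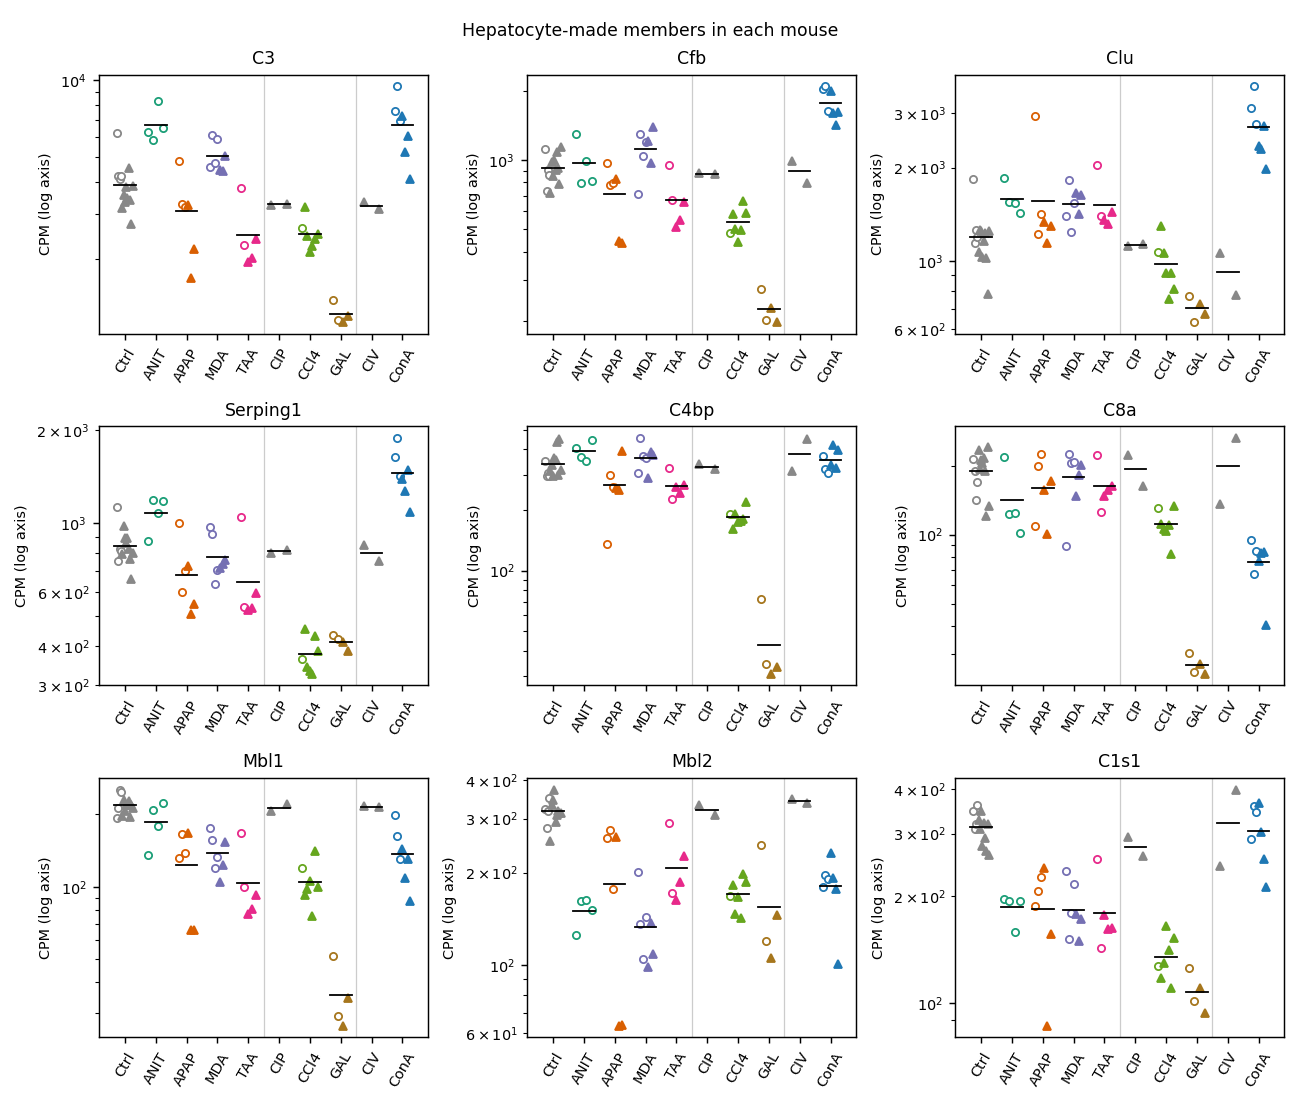
Levels of 9 hepatocyte-made members in each mouse (CPM, log axis) by group, with vertical lines between the routes. Open circles are mice numbered 1 to 4, filled triangles higher numbers, and black lines group means. GAL mice lie lowest in C3, Cfb, C4bp, C8a and Mbl1, and ConA mice lie above both CIV mice in C3, Cfb, Clu and Serping1.

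Of the 7 macrophage-made members, the C1q chains, Cfp and Fcna fell with ConA, C5ar1 rose, and C3ar1 was not called (-1.59). C1qa, the A chain of C1q, was 11.2 to 29.3 CPM around a median of 21.6, against 127 and 82.0 in CIV (-2.26 ± 0.32, adjusted p = 0.000608). C1qb was 24.1 to 50.9 CPM against 148 and 81.3 (-1.45 ± 0.32, adjusted p = 0.00626), and C1qc was 11.4 to 26.2 CPM against 124 and 61.8 (-2.09 ± 0.32, adjusted p = 0.000905). Cfp, properdin, fell by 1.70 on the log2 scale and Fcna, ficolin A, by 0.94. No ConA mouse reached a CIV mouse in any of these 5 genes, and 39.9% of all genes had groups that did not overlap. Against all vehicles C1qa, C1qb and C1qc were lower by -2.32, -1.48 and -2.23, within numbers 1 to 4 by -1.49, -0.66 and -1.23, and within higher numbers by -2.77, -1.87 and -2.69, all called. Without CIV mouse 7 the falls of C1qb (-0.92) and Fcna (-0.61) against CIV were not called. The 5 Kupffer cell markers (Clec4f, Timd4, Cd5l, Marco and Folr2) fell too, all 5 called. Their sum was 28.5 to 52.5 CPM with ConA against 261 and 296 in CIV, and none of them was at 0 in any ConA mouse. Of 5 markers of sinusoidal endothelium, 3 were lower and 1 higher with ConA, with sums of 54.9 to 105 CPM against 117 and 132. Of 5 markers of stellate cells, 2 were lower, with sums of 119 to 283 CPM against 47.5 and 175. The part of these cell types in the change of C1q was not tested. Over all 57 mice C1qa, C1qb and C1qc ran with that sum (Pearson's r of 0.93, 0.88 and 0.93), a description of mice that share group and number range.

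With the other compounds the values of C1q depended on the scaling or the number range. CCl4 lowered C1qa to between 43.1 and 119 CPM against 128 and 143 in CIP (-1.0 ± 0.31, adjusted p = 0.0319) and C1qc to between 38.6 and 101 against 123 and 144 (-1.08 ± 0.30, adjusted p = 0.0216). C1qb missed the threshold with CCl4 (-0.85 ± 0.30, adjusted p = 0.0556). Fcna fell as well (-0.81). With counts scaled to the library total none of these was called (C1qa -0.55, C1qc -0.63), and the fall of C1qa was lost when CCl4 mouse 1, 5, 6 or 10 or either CIP mouse was left out. The falls of C1qc and Fcna were lost without either CIP mouse. The sum of Kupffer cell markers was 111 to 354 CPM against 301 and 309, with 1 marker called higher and 2 lower, and its part was not tested. CCl4 mouse 11 had the highest C1qa, 119 CPM. With GAL, C1qa was 143, 115, 141 and 102 CPM (-0.12 ± 0.19, adjusted p = 0.676), C1qb 146, 132, 160 and 117 (0.00 ± 0.18, adjusted p = 0.994) and C1qc 128, 106, 134 and 97.1 (-0.19 ± 0.19, adjusted p = 0.47). Under the library total GAL raised C1qb by 0.77, Cfp by 0.86 and Fcna by 1.07, all called. Within numbers 1 to 4, which hold 2 GAL mice, C1qa, C1qb and C1qc were higher than in the vehicle mice of that range by 0.83, 0.90 and 0.95, all called.

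Gavage controls numbered 1 to 4 had C1qa at 89.9, 55.3, 83.5 and 62.6 CPM, against 93.9 to 167 in the 9 controls with higher numbers (-0.80 ± 0.17, adjusted p = 0.0233). C1qb, C1qc, Cfp and C3ar1 were lower too, by -0.86, -1.01, -0.84 and -1.44, so that 5 members were lower and none higher, where 1.73% of all genes were lower, 0.603% higher and 2.33% called in all. Of these 5, only C1qc was still called without Ctrl mouse 2 or Ctrl mouse 4. Without Ctrl mouse 1 the calls of C1qb and C3ar1 were lost, and without Ctrl mouse 3 that of C3ar1. All 5 Kupffer cell markers were lower, with sums of 149 to 198 and 275 to 434 CPM. The 4 gavage compounds called no C1q chain against all 13 Ctrl mice, though with the number range as a covariate C1qb was called higher with APAP (0.46, adjusted p = 0.0453). The differences of C1qa, C1qb and C1qc were -0.52, -0.37 and -0.54 with ANIT, -0.01, 0.28 and 0.17 with APAP, -0.34, -0.23 and -0.46 with MDA, and -0.26, 0.03 and -0.15 with TAA. Their standard errors ran from 0.20 to 0.26 and their adjusted p-values from 0.111 to 0.990. Against the 4 Ctrl mice of the same numbers, ANIT gave 0.07, 0.27 and 0.21, none called. TAA mice went both ways: mice 1 and 3 had 134 and 93.6 CPM of C1qa and mice 6, 7 and 8 had 64.3, 74.1 and 77.2. Within numbers 1 to 4 TAA gave 0.68 for C1qa, which was not called, and 0.97 and 0.87 for C1qb and C1qc, which were. Within higher numbers it gave -0.79, -0.46 and -0.63, all called.

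**Figure D3:**
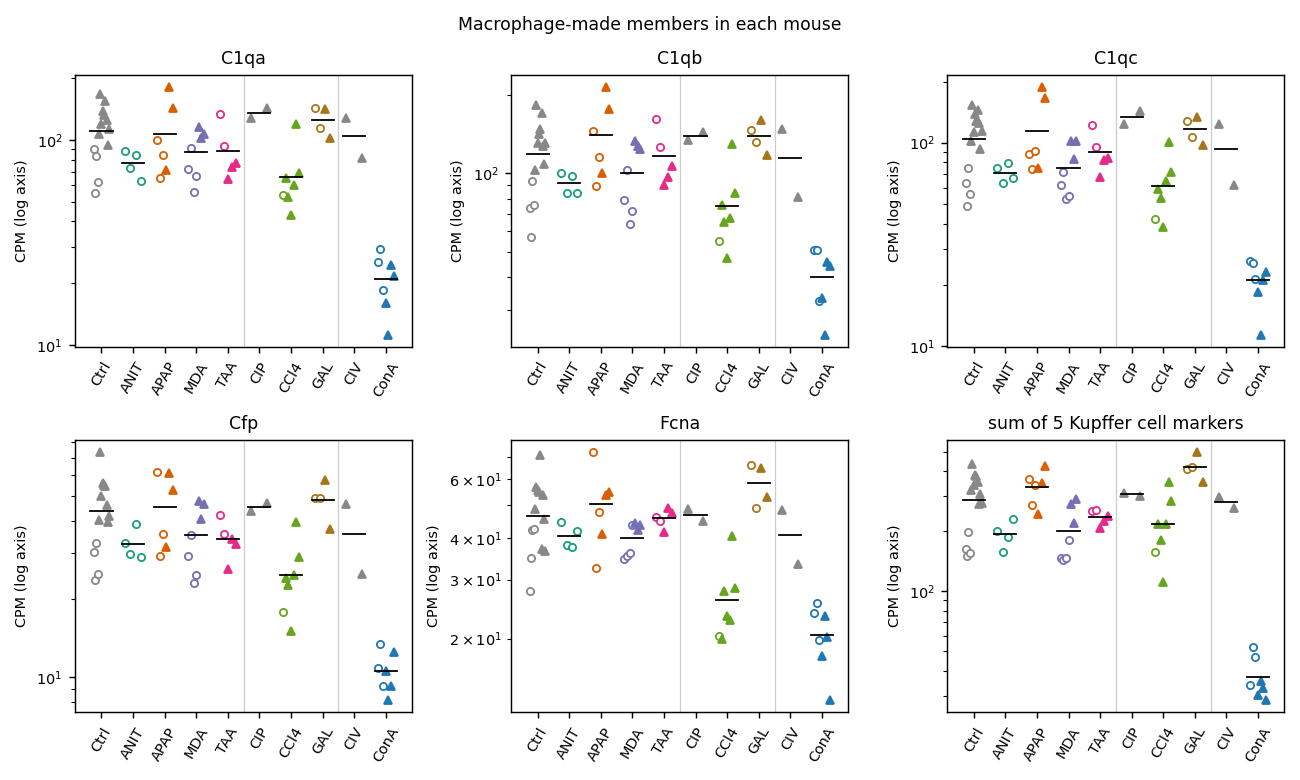
Levels of 5 macrophage-made members and of the sum of 5 Kupffer cell markers in each mouse (CPM, log axis) by group, drawn as in the plot of hepatocyte-made members. ConA mice lie below every other mouse in C1qa and C1qc. Open circles of Ctrl lie below the Ctrl triangles in C1qa, C1qb, C1qc, Cfp and the marker sum.

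The chains of C1q fell unequally with ConA. C1qb made up 49.0% ± 2.13 (SD, n = 7) of the summed CPM of the 3 chains in ConA mice and 35.6% ± 1.80 (SD, n = 13) in Ctrl. The lowest ConA mouse, at 44.8%, lay above the highest mouse of any other group, an APAP mouse at 43.5%. C1qa made up 25.3% ± 1.54 in ConA and 33.4% ± 2.02 in Ctrl. C1qc made up 25.7% ± 2.15 and 31.0% ± 1.58. In CIV the share of C1qb was 36.1% and 37.1%. This pattern was chosen after the values were seen, and no test was made of it.

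**Figure D4:**
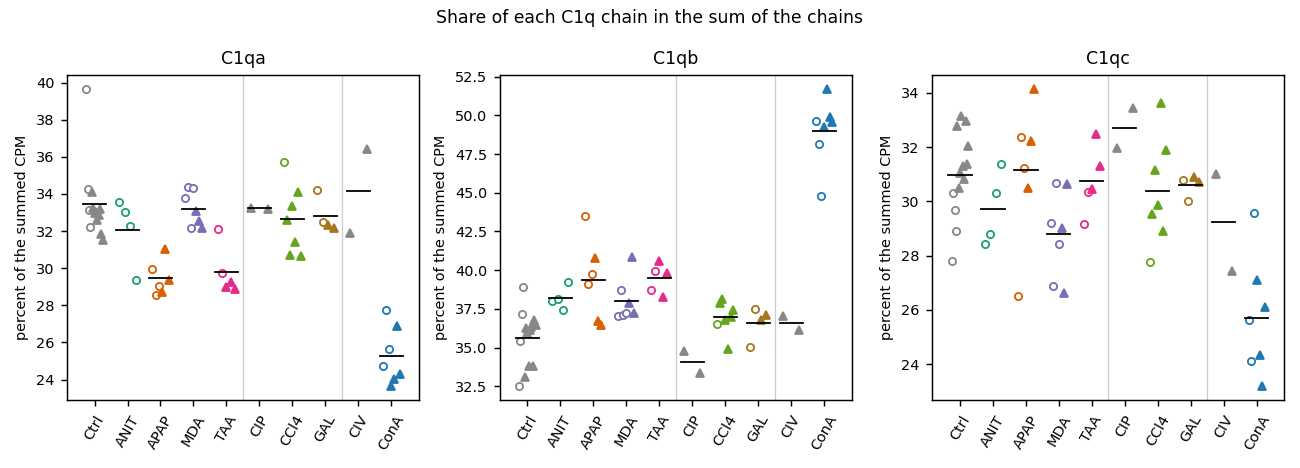
Share of each C1q chain in the summed CPM of the 3 chains (percent, linear axis) in each mouse by group, drawn as in the other plots. C1qb takes 44.8% to 51.7% in ConA mice and C1qa 23.7% to 27.7%.

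The receptor for C5a, C5ar1, which neutrophils and macrophages carry, rose with all 7 compounds. Of all genes tested with every compound, 1.15% did so. Levels were low, from 0.305 to 1.63 CPM in Ctrl with a median of 0.639. With APAP they were 2.14 to 9.16 CPM around a median of 4.09, above every Ctrl mouse (2.75 ± 0.29, adjusted p = 1.63e-06). The groups did not overlap for 6.69% of all genes with APAP. With TAA they were 1.25, 6.82, 4.28, 17.1 and 5.09 CPM (3.22 ± 0.38, adjusted p = 9.60e-07), and mouse 1 was the only TAA mouse within the Ctrl range. GAL mice had 3.57, 3.58, 5.10 and 2.58 CPM against 0.652 and 0.329 in CIP (2.84 ± 0.48, adjusted p = 0.00875). CCl4 mice had 0.914 to 3.64 CPM (2.26 ± 0.53, adjusted p = 0.00920). Both groups lay above the CIP mice, but 52.3% of all genes with GAL and 41% with CCl4 did not overlap CIP. The rise with MDA was 1.62 ± 0.35 (adjusted p = 0.00127), with 1.30 within numbers 1 to 4, not called, and 2.08 within higher numbers, called. The rises with ANIT (0.90 ± 0.32, adjusted p = 0.0466) and ConA (1.17 ± 0.38, adjusted p = 0.0349) were the smallest. Neither was called under the library total (0.63 and 0.54), and the rise with ANIT was lost whichever ANIT mouse was left out. The rise with ConA was lost without CIV mouse 8 or ConA mouse 2, 3, 4 or 8. Against all 17 vehicle mice ConA raised C5ar1 by 1.68, and by 1.02 under the library total, both called. Without CIP mouse 8 the rises with CCl4 and GAL were not called (1.89 and 2.45).

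Markers of neutrophils were also higher. Summed over 5 markers they reached 153 to 783 CPM with TAA against 0.694 to 50.4 in Ctrl, and 126 to 286 with ConA against 5.85 and 6.38 in CIV. With TAA all 5 were called higher and with ConA 4 of 4 tested. With ANIT 1 of 3 tested was higher, with APAP 3 of 3, with MDA 2 of 3, with CCl4 2 of 4 and with GAL 3 of 4. A gene can pass the filter on low counts through the treated group alone. The further markers tested with TAA, ConA, CCl4 and GAL are therefore no added support for a rise. Of 6 markers of monocytes and macrophages, 3 were higher with APAP, and 2 were higher and 1 lower with each of TAA, CCl4 and GAL, while 3 of 5 tested were lower with ANIT and with ConA, and 2 of 6 with MDA. Their sum was 195 to 280 CPM with APAP against 78.5 to 242 in Ctrl, and 244 to 341 with GAL against 183 and 213 in CIP. The part of these cells in the change of C5ar1 was not tested. C3ar1, the receptor for C3a, rose with APAP (0.96 ± 0.33, adjusted p = 0.0306), TAA (1.24 ± 0.39, adjusted p = 0.0125) and GAL. GAL mice had 1.93, 2.44, 2.61 and 1.88 CPM of it against 0.998 and 1.13 in CIP (1.07 ± 0.32, adjusted p = 0.0468). With the number range as a covariate C3ar1 was still called with APAP (1.27) and TAA (1.36), and not with GAL against CIP (1.10, adjusted p = 0.0953). The call with GAL was lost when either CIP mouse or GAL mouse 4, 7 or 8 was left out, and the call with TAA without TAA mouse 7. The call with APAP was lost without APAP mouse 4 (0.75), 8 or 11, with no filter on low counts (0.94) and within higher numbers (0.68). Against all vehicles it fell with ConA (-1.50) and rose with GAL (1.35).

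**Figure D5:**
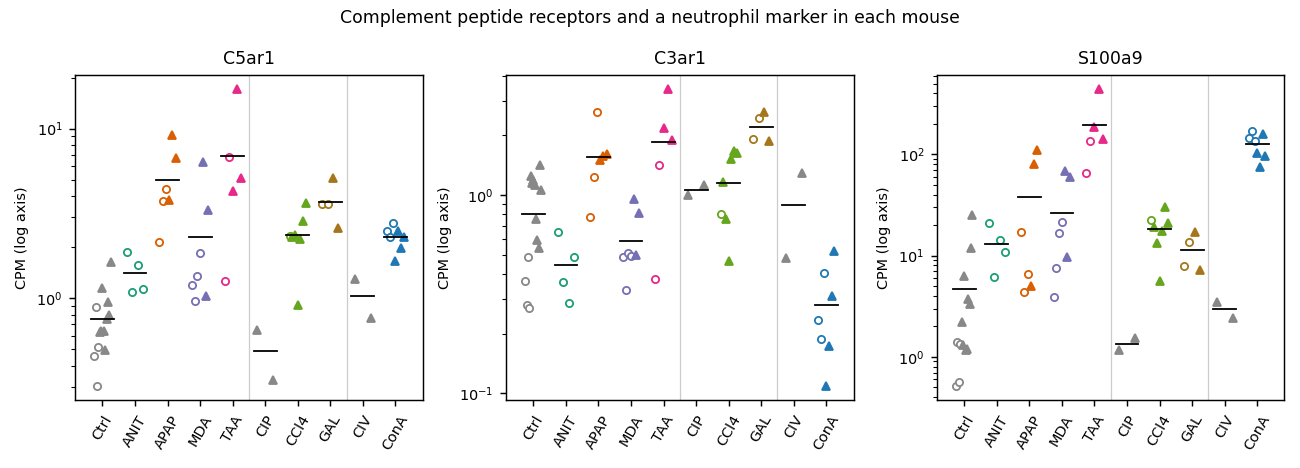
Levels of C5ar1, C3ar1 and the neutrophil marker S100a9 in each mouse (CPM, log axis) by group, drawn as in the other plots. C5ar1 reaches 17.1 CPM in a TAA mouse and stays at or below 1.63 CPM in the Ctrl mice.

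By role, the 7 recognition members had 6 called lower with CCl4 and with ConA, beside 15.6% and 17.3% of all genes. With each other compound 1 to 3 were lower, and with TMM scaling none was higher. The counts of 1 of 7 with ANIT and GAL and 2 of 7 with TAA are close to the shares of all genes lower with these compounds (14.2%, 15.7% and 24%). Under the library total the 6 with CCl4 became 1, the 6 with ConA became 7, and 2 recognition members were higher with GAL. When CIV mouse 7 was left out, the calls of C1qb, Colec11, Fcna and Mbl2 with ConA were lost. Those of C1qa, C1qc and Fcna with CCl4 were lost when either CIP mouse was left out. The proteases and the components of C4 and C3 activation had 8 of 10 lower with GAL, 7 of 9 with CCl4 and 7 of 9 with TAA, beside 15.7%, 15.6% and 24% of all genes, and 2 lower and 2 higher of 9 with ConA. With the library total 4, 4 and 7 were lower, 1 was higher with GAL, and with ConA 2 were lower and none higher. Terminal components were lower in 5 of 6 cases with GAL and 4 of 6 with ANIT (15.7% and 14.2% of all genes), and in 3 and 5 with the library total. Without ANIT mouse 3 the calls of C6, C8b and C9 with ANIT were lost. With ConA 1 of 6 was lower, and all 6 were with the library total. No terminal member was called higher with any compound under either scaling. Regulators had 5 of 6 lower with GAL and 4 of 6 with CCl4, both of which became 2 with the library total. None was called with APAP, and 2 of 6 were higher with ANIT and with ConA, beside 14% and 16.8% of all genes. With the library total 1 was higher with APAP, 1 was higher with GAL, none was called with ANIT, and 1 was higher and 2 were lower with ConA. Colec11, a lectin of the collectin family, fell with MDA (5.43 to 30.9 CPM against 19.7 to 50.1 in Ctrl, -1.15), CCl4 (-0.99) and ConA (-1.39). The call with MDA was lost within numbers 1 to 4 (-1.02), that with CCl4 under the library total (-0.52) and without CIP mouse 8, and that with ConA without either CIV mouse. Cd55, a membrane regulator that many cells carry, was called with no compound against its route vehicle, with differences from -0.60 to 1.04. With GAL it was called higher within higher numbers (1.39) and with the library total (1.76), and with ConA lower with the library total (-1.20). C7 and Cfd stayed below 0.75 CPM in every mouse. C7 entered the test with CCl4 and Cfd with GAL, and neither was called. Cfd, factor D, is made chiefly by fat cells, whose summed markers reached at most 0.689 CPM in any mouse.

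Set against all 17 vehicle mice, each member called against the route vehicle was called again in the same direction. The counts were 4 higher and 7 lower with ANIT, beside 13.5% of all genes higher, 14.5% lower and 28% called in all. They were 3 and 8 with APAP (18.1%, 15.3% and 33.4%), 4 and 12 with MDA (17.2%, 17.1% and 34.2%) and 3 and 13 with TAA (25.2%, 24.5% and 49.7%). With CCl4 they were 1 and 25 (26.2%, 27.2% and 53.4%), with GAL 3 and 21 (25.1%, 27.5% and 52.5%) and with ConA 8 and 16 (34.3%, 33.7% and 68%). All 21 hepatocyte-made members were lower with GAL in this comparison, at a median of -1.59, and 15 under the library total. That scaling gave 1 higher and 12 lower with ANIT, 4 and 16 with CCl4, 9 and 15 with GAL and 5 and 22 with ConA over all members, with shifts of the median of all genes of -0.24, 0.53, 0.83 and -0.62. Between the vehicles themselves no member was called by edgeR or DESeq2 (0.0131% of all genes called for CIP against Ctrl, and 0.0263% for CIV), and none had an unadjusted p under 0.05. With 2 mice in each saline group such a comparison is imprecise.

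Of 27 further complement genes, 12 fell and 2 rose of 22 tested with GAL, 8 fell and 1 rose of 21 with CCl4, 9 fell and 3 rose of 22 with APAP, and 8 fell and 2 rose of 22 with MDA. With TAA 7 fell and 3 rose, with ConA 6 fell and 1 rose, and with ANIT 2 fell and 1 rose, each of 22. Of all genes tested, 28.2% were called with ANIT, 31.8% with APAP, 33.8% with MDA, 50.5% with TAA, 33.5% with CCl4, 28.5% with GAL and 34.2% with ConA, so the counts with ANIT and TAA lay below these shares and that with ConA near them. Cd59b and Susd4, 2 regulators that sit in the cell membrane, fell with all 7 compounds, as did 2.62% of all genes. Cd59b was 5.29 to 14.5 CPM in Ctrl and fell by 1.21 on the log2 scale with APAP and by 2.11 with GAL, the smallest and the largest change with TMM scaling. With the library total it was -1.34 with GAL and -2.70 with ConA. The call with APAP was lost within higher numbers (-1.08, adjusted p = 0.106). Reads of Cd59b can be shared with its neighbour Cd59a. Susd4 was 3.63 to 10.9 CPM in Ctrl, 0.171 to 2.62 with APAP (-2.72 ± 0.40, adjusted p = 4.35e-05) and 0.341 to 1.10 with CCl4 (-2.85 ± 0.37, adjusted p = 0.000375), and it was called with 6 of 7 compounds under the library total. With MDA Susd4 was -1.98 within numbers 1 to 4, not called (adjusted p = 0.0504), and -2.65 within higher numbers, called. Vsig4, a complement receptor of Kupffer cells, fell with ConA (-3.22 ± 0.38, adjusted p = 0.000215) and CCl4 (-1.07 ± 0.26, adjusted p = 0.0109), the second not called under the library total (-0.65). Cpn2, a subunit of the carboxypeptidase that inactivates C3a and C5a, fell with every compound other than ANIT, by up to 3.31 with GAL, where it was not called under the library total (-2.48, adjusted p = 0.0548). Within numbers 1 to 4 Cpn2 was not called with APAP (-1.08) or MDA (-0.25).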

How the data were processed

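RNA of 57 mouse livers was sequenced from stranded mRNA libraries, single-end, per the labels' protocols. The authors deposited a single file of estimated counts per gene and sample. The submitters' processing notes name Salmon 1.6.0, R 4.1.3 and GRCm39. The annotation and the use of strand in counting are not given in the sources used here. In 13043 genes that have 1 transcript, longer transcripts had a lower minimum above 0 (rho -0.760 over genes), so the values look scaled by length, and no counting intervals were computed. Coordinates are given only for RefSeq start regions, on GRCm38.p6, which is not the build of the counts.

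Group and mouse number come from the sample descriptions. Nothing else says how the mice relate, so p-values measure the spread between these samples. Estimated counts were rounded and tested with edgeR 4.0.16 (limma 3.58.1, R 4.3.3): each comparison on its own groups, filterByExpr, TMM scaling, quasi-likelihood F test, two-sided, no covariates, Benjamini-Hochberg adjustment over all genes tested, threshold 0.05. Standard errors were derived from the F statistic. CPM use TMM factors over all 57 samples. The code was tested on simulated data. Alternatives were DESeq2 1.42.0, scaling to the library total, no filter on low counts, the number range as a covariate or as a subset, the replicate number as a block, and leaving out in turn each treated mouse and, in comparisons with CIP or CIV, each saline mouse. In the gavage and all-vehicle comparisons no control mouse was left out singly, and in the comparison of the Ctrl ranges those numbered 1 to 4 were.

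The members, lists and tests were chosen with earlier results of these data known. Given in full are C3 and the C1q chains, the 2 largest rises and falls per compound among called members whose groups did not overlap, members called in 1 direction with at least 6 compounds, and members called in opposite directions. Other members are given by counts and ranges. Promoter letters and gene neighbours come from RefSeq on GRCm38.p6.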

Additional observations from a re-analysis of the deposited data

Results flagged for a closer look

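Over the members in the 7 treated groups, 224 combinations of gene and group were examined for a mouse that stood far from the others of its group, and 29 met Dixon's 95% criterion, where chance flags about 1 in 20. TAA mouse 1 stood above its group in 12 of them: C1ra (174 CPM), C3 (3799), C8b (263), C8g (481), C9 (280), Cfi (447), Masp2 (284), Mbl1 (168), Clu (2044), Vtn (2947), Serping1 (1049) and Colec11 (63.7). APAP mouse 1 stood above its group in C6 (31.8), Masp1 (84.6), Clu (2928) and Vtn (5412). CCl4 mouse 11 stood above its group in C1qa (119), Fcna (40.4) and Cfd (0.53), and GAL mouse 2 in C4bp (72.4). In ANIT, mouse 3 was low in C1s1 (159) and mouse 1 low in C2 (42.3) and high in Cfi (407). In MDA, mouse 2 was high in C8g (496) and mouse 1 in Masp2 (376). In ConA, mouse 3 was high in Masp1 (66.1) and mouse 12 low in Mbl2 (101). The remaining flags were TAA mouse 3 in Cfd (0.743) and TAA mouse 7 in Cd55 (8.39).

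The effects of ANIT, APAP, MDA and TAA differed by edgeR's joint test, adjusted over all genes, in C3 (p = 0.000464), C3ar1 (0.00209), C4b (0.00712), C5ar1 (0.0198), Hc (0.0231), Cfb (0.0343) and Serping1 (0.0461). CCl4 and GAL differed, as log2 of CCl4 over GAL, in C4bp (2.06), C8a (1.99), Mbl1 (1.51), Cfb (1.19), C3 (0.99), Vtn (0.91), Hc (0.80), C8b (0.47), Clu (0.42), Cfi (0.39) and C4b (0.38), which were higher with CCl4. Lower with CCl4 were Colec11 (-0.76), C1qb (-0.95), C1qa (-0.97), Cd55 (-0.98), C1qc (-0.98), C3ar1 (-1.0), Cfp (-1.02) and Fcna (-1.22). When scaled to the library total, C4b, C8b, Cfi and Clu were no longer called.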

How the results depend on the processing

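Of 267 called member values, all kept direction and call with DESeq2, 15 lost the call with no filter on low counts, and 52 lost it and 5 reversed when scaled to the library total. With the number range as a covariate 15 of 262 lost the call, within numbers 1 to 4 79 of 148, within higher numbers 26 of 233, and with 1 mouse left out 202 of 1863. Within numbers 1 to 4 the members called went, with ANIT, from 11 to 6 against Ctrl and all vehicles alike, with APAP to 2 against each, with MDA to 5 and with TAA to 3, all 3 higher, so that no fall with TAA was called. Within higher numbers TAA against Ctrl called 2 higher and 21 lower. Fewer mice enter these comparisons. Within higher numbers ConA against CIV went from 14 to 8. Under the library total CCl4 against CIP went from 22 to 11, and the Ctrl ranges from 5 to 8.

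In comparisons with 3 or more shared numbers, mice with the same number deviated together little (mean r from -0.026 to 0.137). At least 1 pair was at or below 0.1 in each, and the highest pair was 0.274, with TAA. The main tests therefore used no pairing, though this check cannot show that such mice share nothing else. With the replicate block, ANIT called 4 members against Ctrl and 6 against all vehicles, APAP against Ctrl called 1, and the joint test of the gavage compounds called 3 in place of 7. No block could be fitted for CCl4 against CIP, ConA against CIV or CCl4 against GAL.

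Leaving out 1 treated or saline mouse gave, against the route vehicle, 5 to 10 members called with ANIT, 9 to 17 with APAP, 11 to 15 with MDA, 12 to 20 with TAA, 15 to 24 with CCl4, 17 to 23 with GAL and 6 to 15 with ConA. Against all vehicles, with treated mice alone left out, it gave 8 to 10, 10 to 18, 13 to 16, 12 to 21, 26 to 27, 23 to 24 and 24 in the same order. It gave 14 to 22 for CCl4 against GAL, 4 to 10 for the joint test, 1 to 4 for the Ctrl ranges, where each Ctrl mouse numbered 1 to 4 was left out, and 0 between vehicles. Counts moved by over 1.5 times without ANIT 3, ANIT 4, APAP 1, CIV 7 or CIV 8, in the joint test without TAA 3, 6 or 8, and in the Ctrl ranges without Ctrl 1, 2 or 4.

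Scaling to the library total reversed Clu with GAL against CIP (0.092) and against all vehicles (0.11) and with CCl4 against all vehicles (0.28), and Colec11 with GAL against all vehicles (0.50). Against all vehicles ConA reversed C1ra (-0.18), C1s1 (-0.56), C2 (-0.26), C4b (-0.30), C4bp (-0.45) and Vtn (-0.55). With TAA, C1qb was -0.46 within higher numbers, against 0.03 over all, and within numbers 1 to 4 C1qb and C1qc were 0.97 and 0.87 against all vehicles, and C1qc 0.87 against Ctrl. The cause of these changes was not tested. Low members such as C5ar1 and C3ar1, near 1 CPM in controls, are the least precise.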

Other observations

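With TMM scaling, the mouse numbered 1 was the highest of its group in 21 of the 21 hepatocyte-made members with TAA and in 12 with APAP. It was the highest in 11 in Ctrl, 9 each with ANIT and MDA, and 4 with CCl4. Under the library total these counts were 13, 4, 0, 6, 6 and 0. The groups held 4 to 13 mice, and no share over all genes was computed. The TMM factor of mouse 1 was 0.733 with TAA (0.957 to 1.14 in the other mice), 0.721 with APAP (1.11 to 1.25) and 0.654 in Ctrl (0.872 to 1.11). With MDA it was 0.915, inside the range of the other mice (0.616 to 1.16), and with ANIT and CCl4 it was 0.784 and 1.15, below the others (0.837 to 0.853 and 1.36 to 1.5).

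Among the further complement genes, Itgam, a chain of complement receptor 3, rose with APAP (2.86), MDA (1.36), TAA (3.15), GAL (1.79) and ConA (2.36). C5ar2, the second receptor of C5a and the neighbour of C5ar1, fell with ConA (-4.25) while C5ar1 rose. That rise of C5ar1 was not called under the library total or within higher numbers.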
